A study of Rattus norvegicus with 20 samples.

Results

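10 rat genes of insulin and insulin-like growth factor (IGF) signalling were followed across ovaries of young rats whose mothers had eaten brominated flame retardants: the ligand *Igf1*, the receptors *Igf1r*, *Insr* and *Igf2r*, the receptor adaptors *Irs1* and *Irs2*, and the binding proteins *Igfbp2*, *Igfbp3*, *Igfbp4* and *Igfbp5*. They were chosen by name, not by their values, and were found through the transcript that each array probe is assigned to. All 10 genes had a probe, 14 probes in all among 30335, or 10 of 15705 named genes. Each of the 14 probes was well above background on all 20 arrays, so no gene was lost to the filter on dim probes.

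Whole ovaries were taken from female Sprague-Dawley rats at 46 days of age, and their RNA was measured on 1-colour Agilent arrays with 1 animal per array. The dams' diet carried a brominated flame retardant (BFR) mixture from at least a week before mating until weaning on postnatal day 21, so the treated diet had ended well before the ovaries were taken. The mixture was mostly polybrominated diphenyl ethers, with 52.1% of it DE-71, 44.2% BDE-209 and only 0.4% DE-79, and the other 3.3% was hexabromocyclododecane. Control dams received 0 mg/kg/day (5 daughters), and treated dams 0.06 mg/kg/day (0.75 mg per kg of diet, 4 daughters), 20 mg/kg/day (250 mg per kg of diet, 5 daughters) or 60 mg/kg/day (750 mg per kg of diet, 6 daughters). The labels describe the animals of a group as coming from separate litters. The submitters left out 1 further animal at 0.06 mg/kg/day as an outlier.

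IGF1 and insulin bind related receptor tyrosine kinases, which recruit the insulin receptor substrates and pass the signal on through phosphatidylinositol 3-kinase and AKT. IGF-binding proteins hold IGFs in extracellular fluid and limit or prolong their access to the receptor, while the IGF2 receptor, also the mannose 6-phosphate receptor, carries IGF2 and lysosomal enzymes into the cell. In the rodent ovary IGF1 is made mainly by granulosa cells of growing follicles and acts together with follicle-stimulating hormone, and IGF-binding proteins 4 and 5 are known from follicles undergoing atresia.

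A value below is the log2 of a probe's processed signal minus the log2 of the array's 75th percentile, so 0 is the 75th percentile of that array and a step of 1 is a doubling. Probes bind with different strength, so levels are compared only within a gene. The 75th percentile ran from 1158 to 1737 signal units over the arrays, 74.8% to 83.4% of spots were well above background and 0 were saturated. Granulosa, theca and oocyte markers were present. The lists held 20, 20 and 15 genes, of which 18, 19 and 10 had a probe. Of those kept by the filter, 18 of 18 granulosa, 18 of 18 theca and 9 of 10 oocyte genes were well above background on every array. So were 19828 of all 23258 kept probes, so these counts show presence only and do not set the markers apart. The arrays sat on 3 slides of 7, 6 and 7, each holding all 4 groups. From 0 to 60 mg/kg/day, slide 1 held 2, 2, 1 and 2 arrays, slide 2 held 1, 1, 1 and 3, and slide 3 held 2, 1, 3 and 1. A difference within a slide can thus rest on 1 animal of a group. In limma 19.2% of 23258 kept probes differed between slides (adjusted p under 0.05). Among the 10 genes *Insr* (adjusted p = 0.0149) and *Irs1* (adjusted p = 0.0304) were among them. In whole ovary, fewer cells of a type and less RNA per cell cannot be told apart.

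The sequences just upstream of 4 of these genes are shown because their RNA gives the results below. *Igf2r* runs opposite to several granulosa cell markers, and *Igfbp4* runs with *Igf2r*. The neighbouring genes *Igfbp2* and *Igfbp5* reached an unadjusted p under 0.05 against controls in limma. Each sequence is the 250 bases before the annotated start in RefSeq (build GRCr8), written in the direction of the gene. They were searched on both strands for GGGCGG (the GC box), TATAAA (the TATA box), CACGTG (the E-box), GTAAACA (the FOXO site) and AAGGTCA (the SF-1 site), none of which overlap in these windows, and matches are in capitals.
Igf2r, chr1:50526628-50526877, plus strand: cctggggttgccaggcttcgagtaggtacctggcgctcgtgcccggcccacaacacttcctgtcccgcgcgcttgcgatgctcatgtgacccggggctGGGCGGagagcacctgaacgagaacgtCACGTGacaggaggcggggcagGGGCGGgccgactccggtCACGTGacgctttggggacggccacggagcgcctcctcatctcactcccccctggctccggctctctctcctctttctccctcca
Igfbp2, chr9:81864561-81864810, plus strand: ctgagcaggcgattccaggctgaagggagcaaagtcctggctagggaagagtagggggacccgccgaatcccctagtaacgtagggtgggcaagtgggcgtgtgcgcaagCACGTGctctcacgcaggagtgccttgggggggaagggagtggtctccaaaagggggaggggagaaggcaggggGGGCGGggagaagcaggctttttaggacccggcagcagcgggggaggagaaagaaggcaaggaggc
Igfbp4, chr10:84491221-84491470, plus strand: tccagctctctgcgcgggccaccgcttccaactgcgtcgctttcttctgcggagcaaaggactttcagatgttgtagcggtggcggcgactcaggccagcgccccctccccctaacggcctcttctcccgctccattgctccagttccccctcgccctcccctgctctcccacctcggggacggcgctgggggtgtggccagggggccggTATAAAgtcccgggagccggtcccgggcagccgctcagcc
Igfbp5, chr9:81914188-81914437, minus strand: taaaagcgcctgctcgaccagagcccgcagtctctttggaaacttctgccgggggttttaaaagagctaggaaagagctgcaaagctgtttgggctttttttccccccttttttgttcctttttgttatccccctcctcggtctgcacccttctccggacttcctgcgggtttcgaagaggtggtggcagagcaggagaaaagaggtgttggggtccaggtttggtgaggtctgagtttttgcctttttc
The *Igf2r* window held 2 GC boxes and 2 E-boxes and was 68% G and C. The *Igfbp2* window held 1 of each and was 64% G and C. The *Igfbp4* window, at 68.8% G and C, held a TATA box 40 to 35 bases before the start. None of the 5 motifs was found in the *Igfbp5* window, at 51.6% G and C. Over all 33469 such windows, 30.5% held a GC box, 12.9% a TATA box, 5.59% an E-box, 3.21% a FOXO site and 3.99% an SF-1 site, and the median share of G and C was 51.2%. *Igfbp2* and *Igfbp5* lie on opposite strands of chromosome 9 with 0 protein-coding genes annotated between them. Of the other genes, *Igf1r* held a GC box and an E-box, *Insr* a FOXO site, *Irs1* 2 GC boxes, and *Igf1* and *Igfbp3* no match, and *Irs2* is not among the windows. A match is a run of letters and not a measured binding site.

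None of the 10 genes was called changed at any dose. Across all kept probes limma called 0% at each of the 3 doses (adjusted p under 0.05), with 3.05%, 4.58% and 6.29% at an unadjusted p under 0.05. Of the 10 genes, 0, 1 and 1 reached that unadjusted p, which is near the background share. The 2 were *Igfbp2* at 20 mg/kg/day and *Igfbp5* at 60 mg/kg/day, both lower than in controls, where 1.85% and 3.48% of all probes were lower at that threshold. The median difference from controls over the 10 genes was -0.09, -0.12 and -0.24 (log2) at the rising doses, beside -0.03, 0.03 and -0.04 over all probes. At 60 mg/kg/day 8 of 10 genes had a lower mean than controls, and so had 60.3% of all probes. The 3 comparisons share the control animals.

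**Figure D1:**
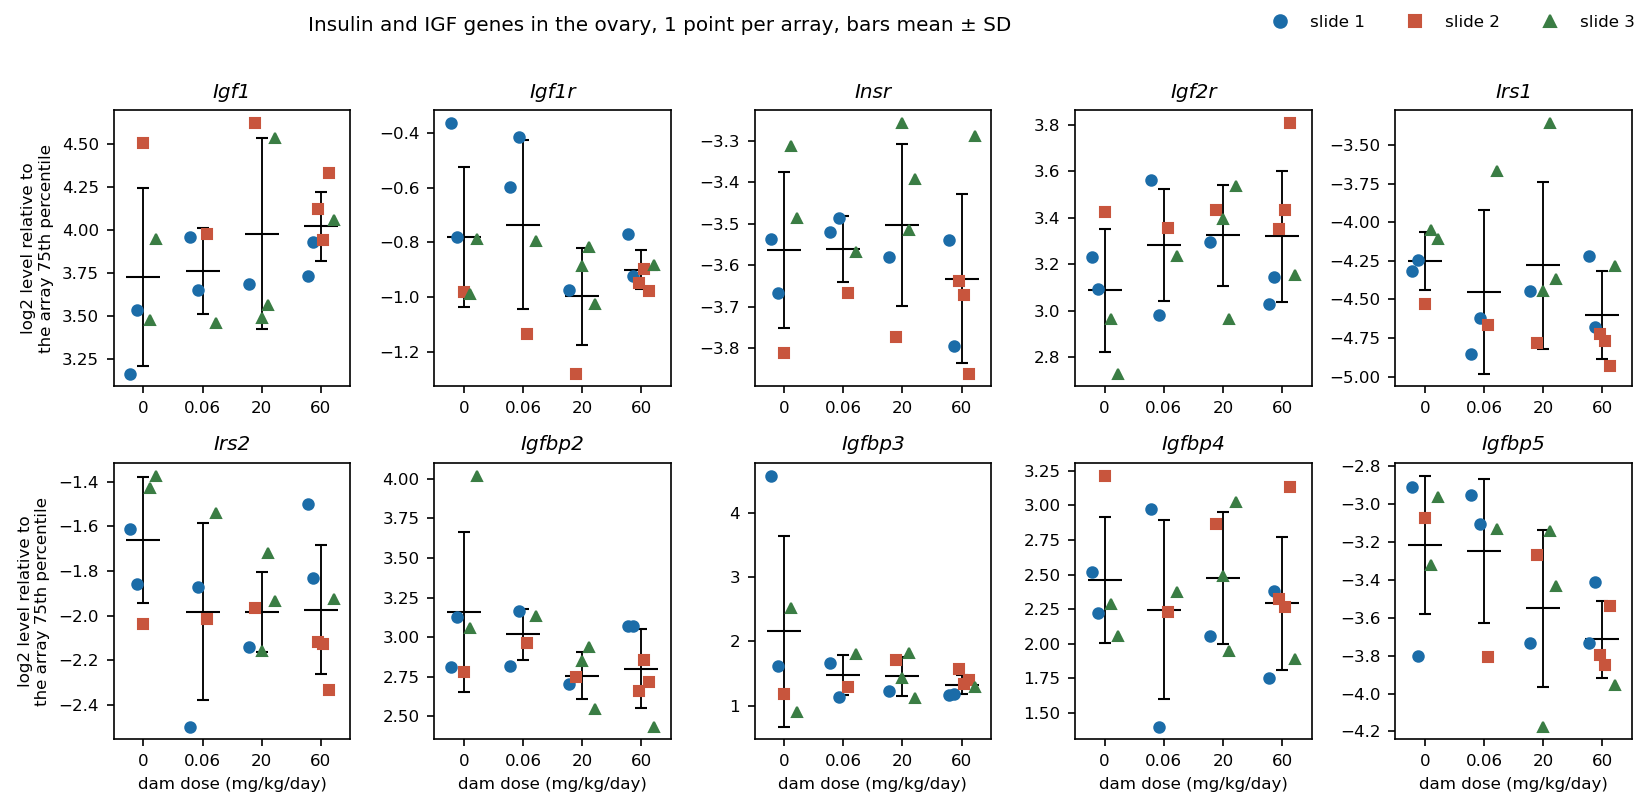
Log2 level of each of the 10 genes relative to the array's 75th percentile (vertical axes, scaled per gene) by dose to the dam in mg/kg/day, 1 point per array with shape and colour by slide, and bars for mean ± SD (n = 5, 4, 5 and 6). The groups overlap in every panel, and single control arrays stand far above the rest for *Igfbp2* (4.02) and *Igfbp3* (4.57).

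*Igf1* encodes the ligand. Its control values were 3.16, 3.53, 4.50, 3.48 and 3.94, and those at 0.06 mg/kg/day were 3.96, 3.65, 3.98 and 3.46. With the 20 mg/kg/day diet it measured 3.69, 4.62, 3.49, 3.56 and 4.53, and with 60 mg/kg/day it ran from 3.73 through a median of 4.00 to 4.33. The 2 highest arrays were at 20 mg/kg/day and the lowest was a control, and all groups overlapped. Group means were 3.72 ± 0.52, 3.76 ± 0.25, 3.98 ± 0.55 and 4.02 ± 0.20 (SD, n = 5, 4, 5 and 6), in the order of dose, but neighbouring means differed by less than the SD within groups. The difference at 60 mg/kg/day was 0.30 ± 0.24 (SE; limma, unadjusted p = 0.229, adjusted p = 0.829). A second probe, for another *Igf1* transcript, varied with the first over the arrays (r = 0.972) and gave 0.35 ± 0.25 at that dose. At 60 mg/kg/day the difference was 0.49, -0.37 and 0.35 within the 3 slides, so its direction was not shared by all slides. The -0.37 rests on the 1 control of slide 2.

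*Igf1r*, the receptor kinase for IGF1, varied little. Controls gave -0.36, -0.78, -0.98, -0.99 and -0.79, and the 0.06 mg/kg/day animals -0.60, -0.41, -1.14 and -0.79. Levels at 20 mg/kg/day were -0.98, -1.28, -0.89, -0.82 and -1.02, and those at 60 mg/kg/day ran from -0.98 through -0.91 to -0.77. All 5 animals at 20 mg/kg/day lay below the control mean, 2 of them below every control. That difference was -0.22 ± 0.13 (SE; limma, unadjusted p = 0.121, adjusted p = 0.929). Its sign was the same within each slide (-0.40, -0.30 and -0.02).

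*Insr*, the insulin receptor, had the smallest range of the 10 genes, 1.52-fold from lowest to highest array. Control levels were -3.54, -3.67, -3.81, -3.31 and -3.49, against -3.52, -3.49, -3.67 and -3.57 at 0.06 mg/kg/day. The 20 mg/kg/day group measured -3.58, -3.77, -3.26, -3.52 and -3.39, and the 60 mg/kg/day group ran from -3.86 through -3.66 to -3.29. The groups overlapped throughout, and slide means (-3.59, -3.74 and -3.40) were further apart than dose means. Differences from controls were 0.00 ± 0.12, 0.06 ± 0.12 and -0.07 ± 0.11 (SE). A second, dimmer probe of the same transcript did not follow the first (r = 0.169 over 20 arrays) and gave -0.14, -0.31 and -0.23, with an unadjusted p of 0.0345 and an adjusted p of 0.929 at 20 mg/kg/day in limma. The 2 probes disagree in sign at 0.06 and 20 mg/kg/day, so no direction is given for *Insr*.

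*Igf2r* codes for the receptor that clears IGF2. Its levels in controls were 3.23, 3.09, 3.42, 2.96 and 2.73, and at 0.06 mg/kg/day 3.56, 2.98, 3.36 and 3.24. They were 3.29, 3.43, 3.39, 2.97 and 3.53 at 20 mg/kg/day, and from 3.03 through 3.25 to 3.81 at 60 mg/kg/day. The lowest arrays were 2 controls and the highest was at 60 mg/kg/day, with broad overlap. All 3 treated means (3.28 ± 0.24, 3.32 ± 0.22 and 3.32 ± 0.28, SD) lay above the control mean of 3.09 ± 0.26. The differences of 0.20 ± 0.17, 0.24 ± 0.16 and 0.23 ± 0.15 (SE) did not pass the test (limma, unadjusted p = 0.260, 0.154 and 0.144). With slide as a block the difference at 60 mg/kg/day was 0.14 ± 0.14 (unadjusted p = 0.333), and within slides it was -0.08, 0.11 and 0.31.

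*Irs1*, an adaptor that docks on the activated receptors, had control levels of -4.32, -4.25, -4.53, -4.05 and -4.11, and -4.85, -4.62, -4.66 and -3.67 at 0.06 mg/kg/day. The levels at 20 mg/kg/day were -4.44, -4.78, -4.45, -3.36 and -4.37, and at 60 mg/kg/day they ran from -4.93 through -4.70 to -4.22. In the lower 2 treated groups, 1 array each lay above all controls. At 60 mg/kg/day 4 of 6 animals lay below every control. The mean there differed by -0.35 ± 0.23 (SE; limma, unadjusted p = 0.149, adjusted p = 0.805) and by -0.18 ± 0.18 with slide as a block. Slide means were -4.48, -4.73 and -4.04, and 3 of the 6 animals at 60 mg/kg/day were on the slide with the lowest mean. A second probe (r = 0.940 with the first) gave a smaller difference at that dose, -0.19 ± 0.20 (SE; unadjusted p = 0.346), with 2 of 6 animals below every control.

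*Irs2*, the other main adaptor, measured -1.61, -1.86, -2.04, -1.43 and -1.37 in controls and -2.50, -1.87, -2.02 and -1.54 at 0.06 mg/kg/day. Values were -2.14, -1.97, -2.16, -1.72 and -1.94 at 20 mg/kg/day, and ran from -2.33 through -2.02 to -1.50 at 60 mg/kg/day. The 2 highest arrays were controls, and the groups overlapped. All 3 treated means lay below the control mean of -1.66 ± 0.28 (SD, n = 5), with differences of -0.32 ± 0.19, -0.32 ± 0.18 and -0.31 ± 0.17 (SE; limma, unadjusted p = 0.108, 0.0865 and 0.0849, adjusted p = 1.000, 0.929 and 0.786). With slide as a block they were -0.28 ± 0.17, -0.37 ± 0.16 and -0.21 ± 0.16 (unadjusted p = 0.113, 0.0352 and 0.196; adjusted p = 0.787 at 20 mg/kg/day). Their sign was not shared by all slides: within slides the difference was -0.41, 0.07 and -0.54 at 20 mg/kg/day and 0.07, -0.16 and -0.53 at 60 mg/kg/day.

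*Igfbp2* encodes a binding protein with a preference for IGF2. Controls measured 2.81, 3.13, 2.78, 3.06 and 4.02, and animals at 0.06 mg/kg/day 2.82, 3.17, 2.96 and 3.13. At the 20 mg/kg/day dose the values were 2.70, 2.75, 2.85, 2.94 and 2.54, and at 60 mg/kg/day they ran from 2.44 through 2.79 to 3.07. Control replicate 5 stood 1.15 above the mean of the other controls, and 3 of 5 animals at 20 mg/kg/day and 3 of 6 at 60 mg/kg/day lay below every control. The differences were -0.14 ± 0.20, -0.40 ± 0.19 and -0.36 ± 0.18 (SE). At 20 mg/kg/day the 95% interval was -0.80 to -0.01, and 5 of 5 animals lay below the control mean (limma, unadjusted p = 0.0452, adjusted p = 0.929). Leaving out 1 array at a time moved that unadjusted p between 0.0192 and 0.172. Without control replicate 5, an alternative chosen after seeing the data, the differences were 0.07 ± 0.14, -0.19 ± 0.13 and -0.14 ± 0.13 (SE; unadjusted p = 0.603, 0.172 and 0.277). Within slides the difference at 20 mg/kg/day was -0.27, -0.03 and -0.76, the last on the slide that held control replicate 5. A second probe varied with the first (r = 0.979).

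*Igfbp3* encodes the main carrier of IGFs in blood. It varied more than the other members, 12.7-fold from lowest to highest array, and 93.3% of all kept probes had a smaller residual SD. Control values were 4.57, 1.61, 1.18, 2.52 and 0.91, and those at 0.06 mg/kg/day were 1.66, 1.14, 1.29 and 1.80. Animals at 20 mg/kg/day measured 1.22, 1.72, 1.42, 1.81 and 1.12, and those at 60 mg/kg/day ran from 1.16 through 1.31 to 1.56. Control replicate 1 was 4.15-fold above the next highest array, which was also a control, and the lowest array was a control too. The controls therefore spanned every treated value. The differences were -0.69 ± 0.49, -0.70 ± 0.46 and -0.84 ± 0.44 (SE; limma, unadjusted p = 0.177, 0.147 and 0.0748). Without control replicate 1, also chosen after seeing the data, they shrank to -0.08 ± 0.26, -0.10 ± 0.25 and -0.23 ± 0.24 (SE).

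*Igfbp4* had control levels of 2.52, 2.22, 3.22, 2.28 and 2.05, and 2.97, 1.40, 2.23 and 2.37 at 0.06 mg/kg/day. They were 2.05, 2.86, 2.49, 1.95 and 3.03 at 20 mg/kg/day, and ran from 1.75 through 2.29 to 3.13 at 60 mg/kg/day. High and low arrays occurred in every group. Its range was 3.52-fold, the second widest of the 10 genes, and its dose differences were -0.21 ± 0.33, 0.02 ± 0.31 and -0.17 ± 0.29 (SE). Its SD within groups was larger than any of these differences.

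*Igfbp5*, the most conserved of the binding proteins, measured -2.91, -3.80, -3.07, -3.32 and -2.96 in controls and -2.95, -3.11, -3.80 and -3.13 at 0.06 mg/kg/day. Values at 20 mg/kg/day were -3.73, -3.27, -4.17, -3.14 and -3.43, and at 60 mg/kg/day they ran from -3.95 through -3.77 to -3.41. All 6 animals at 60 mg/kg/day lay below the control mean, 2 of them below every control. Group means fell in dose order, -3.21 ± 0.36, -3.25 ± 0.38, -3.55 ± 0.41 and -3.71 ± 0.20 (SD), with neighbouring means closer than the SD within groups. At 60 mg/kg/day the difference was -0.50 ± 0.20 (SE; 95% interval -0.92 to -0.08), or 1.41-fold lower (limma, unadjusted p = 0.0217, adjusted p = 0.782). With slide as a block it was -0.49 ± 0.22 (unadjusted p = 0.0370), and within slides -0.22, -0.65 and -0.81. Against 0.06 mg/kg/day the difference was -0.47 ± 0.21 (unadjusted p = 0.0416, adjusted p = 1.000), in a comparison where 2.43% of all probes reached that threshold. The trend over dose order had an unadjusted p of 0.0111 and an adjusted p of 0.839 (limma), while 2.73% of all probes had a falling trend below 0.05. Leaving out control replicate 1 or 5 raised the unadjusted p at 60 mg/kg/day to 0.0613 or 0.0565.

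**Figure D2:**
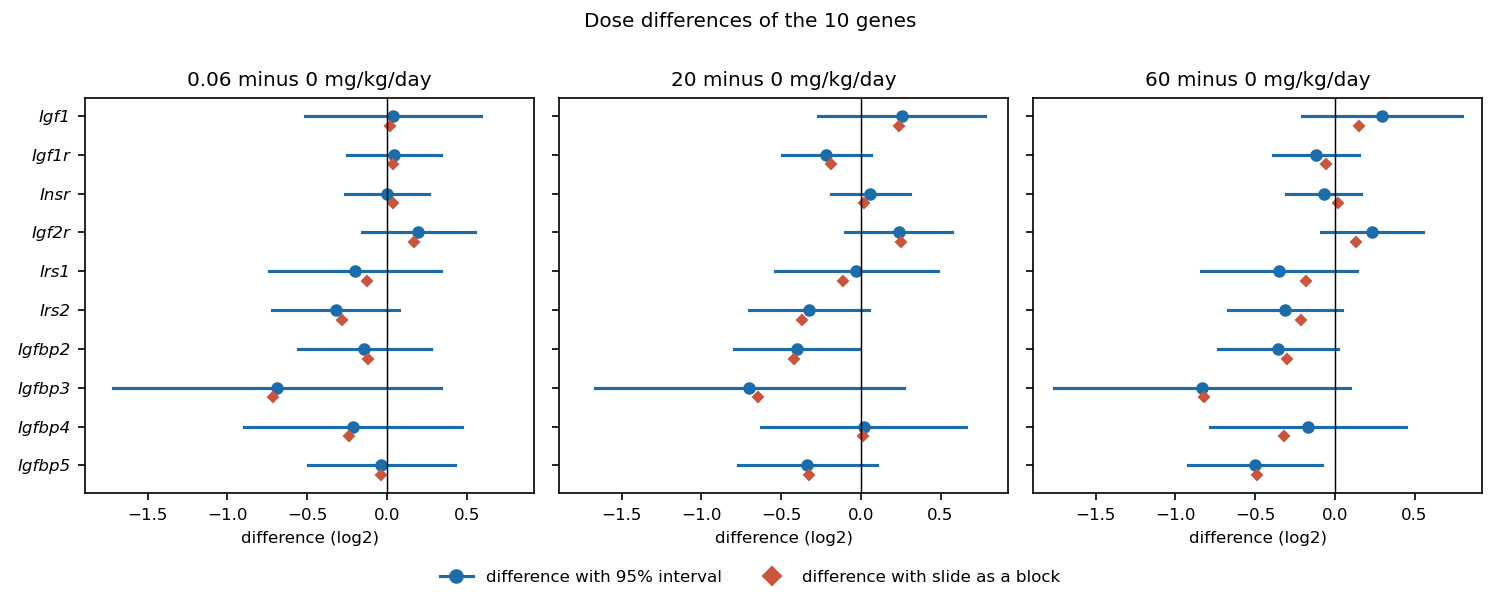
Difference from 0 mg/kg/day (log2, horizontal axis) of each gene, 1 panel per dose of 0.06, 20 or 60 mg/kg/day, with the unadjusted 95% interval as a line and the value with slide as a block as a diamond. The interval leaves out 0 for *Igfbp2* at 20 mg/kg/day (-0.80 to -0.01) and *Igfbp5* at 60 mg/kg/day (-0.92 to -0.08), and in neither case did the adjusted p pass.

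The rest of the pathway was read from a list of 47 further genes of insulin and IGF signalling, of which 40 had a probe and 38 passed the filter. None of the 38 was called at any dose. At an unadjusted p under 0.05, 0 of 38 passed at 0.06 mg/kg/day, 1 (higher, with 2.73% of all probes higher) at 20 and 3 (lower, with 3.48% of all probes lower) at 60 mg/kg/day. The median difference over the 38 was -0.04, -0.00 and -0.01 (log2).

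*Stc1*, whose product stanniocalcin 1 blocks the protease that frees IGF from IGFBP4, ran from -1.70 through -1.12 to 0.09 in controls and from -2.40 through -2.03 to -0.98 at 60 mg/kg/day. There 5 of 6 animals lay below every control, a difference of -0.96 ± 0.35 (SE; limma, unadjusted p = 0.0136, adjusted p = 0.782). *Irs3*, another adaptor of the family, differed by -0.59 ± 0.25 at that dose (unadjusted p = 0.0323), with 6 of 6 animals below the control mean. With slide as a block the *Irs3* difference was -0.45 ± 0.24 (limma, unadjusted p = 0.0826). Within slides it was -0.28, 0.07 and -1.29, the last from 1 animal at 60 mg/kg/day on slide 3. *Gsk3a*, a kinase that AKT inhibits, differed by -0.24 ± 0.10 (unadjusted p = 0.0259), with 5 of 6 below every control, and by -0.18 ± 0.09 with slide as a block (unadjusted p = 0.0514). *Mtor*, the growth-controlling kinase downstream of AKT, differed by 0.19 ± 0.07 at 20 mg/kg/day (unadjusted p = 0.0198), with 4 of 5 animals above every control. The adjusted p of *Irs3*, *Gsk3a* and *Mtor* were 0.782, 0.782 and 0.929. With slide as a block *Stc1* differed by -0.85 ± 0.36 (unadjusted p = 0.0291) and *Mtor* by 0.17 ± 0.07 (unadjusted p = 0.0264). Of the genes fixed for naming, the ligand *Igf2* differed by -0.19 ± 0.15 at 60 mg/kg/day, *Stc2* by 0.52 ± 0.38, the kinase *Akt1* by 0.05 ± 0.13 and the transcription factor *Foxo3* by -0.07 ± 0.11 (SE), none past the unadjusted threshold. *Pappa* and *Foxo1* were not analysed here.

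Variation among the animals was next set against markers of follicle cells. A marker score was the mean, over the genes of a list, of each gene's log2 level standardised over the 20 arrays. The granulosa score (18 genes) rises with RNA of growing follicles, the theca score (18 genes) with RNA of the steroid-making cells around them, and the luteal score (13 genes) with RNA of corpora lutea. The genes of the theca and luteal lists hardly varied together (mean r between genes 0.0898 and 0.026, against 0.224 for granulosa), so those 2 scores stand for no single shared pattern. Over the 10 genes and these 3 scores 30 relations were computed, and each slope was tested in limma with adjustment over all 23258 probes.

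Among the 10 genes 2 were called against the granulosa score, where 6.95% of all probes were. *Igf2r* fell with the score: r was -0.691 (permutation p = 0.00074) and Spearman's rho -0.698 (permutation p = 0.00101) over 20 arrays, and the slope was -0.18 ± 0.04 log2 per SD of the score (limma, adjusted p = 0.0260). *Irs2* rose with it: r was 0.661 (permutation p = 0.0017), rho 0.674 (permutation p = 0.00173) and the slope 0.20 ± 0.05 (adjusted p = 0.0319). Within the 3 slides r was -0.831, -0.514 and -0.818 for *Igf2r* and 0.959, 0.396 and 0.764 for *Irs2*. With slide means removed both calls held (r = -0.731, adjusted p = 0.0378, and r = 0.785, adjusted p = 0.0213), where 2.47% of all probes were called. With dose means removed r was -0.678 and 0.614 and neither passed (adjusted p = 0.0782 and 0.113). Without the 2 arrays farthest from the median score, r was -0.713 and 0.584 (adjusted p = 0.0533 and 0.113).

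Both calls rest on several arrays. Leaving out 1 array at a time, *Igf2r* kept r between -0.771 and -0.646 and lost the call without control replicate 5 (adjusted p = 0.0540), 0.06 mg/kg/day replicate 1 (0.0512), 20 mg/kg/day replicate 5 (0.0577), or 60 mg/kg/day replicate 1 (0.0609) or 5 (0.0727). *Irs2* kept r between 0.619 and 0.717 and lost it without control replicate 5 (0.0672), 0.06 mg/kg/day replicate 1 (0.0684), or 60 mg/kg/day replicate 1 (0.0832) or 5 (0.0814). In the deposited table r was -0.597 for *Igf2r* and 0.592 for *Irs2*, each with an adjusted p of 0.0696. After quantile normalization *Igf2r* had r = -0.603 (0.0638), and after normexp background correction *Irs2* had r = 0.599 (0.0517). The mean score was 0.357 in controls and -0.182, -0.325 and 0.0951 at the rising doses, so it did not follow dose order.

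Some single markers gave a larger r than the score. The members were set against the 49 genes of the 3 lists, of which 10 fall into separate clusters of arrays and were kept apart, and 39 of the remaining 390 correlations (10%) passed after adjustment over the 390 permutation p. *Igf2r* had 7 negative and 0 positive calls among 14 granulosa genes, and *Irs2* had 6 positive and 0 negative. The 2 counts are not separate results, since *Igf2r* and *Irs2* had r of -0.809 with each other. The granulosa list did not move as a whole. Of its 18 genes, 4 had a positive r with *Igf2r*, the highest *Fst* (0.310), and 15 had a positive r with *Irs2*. The 10% is a share over these members only, and how often other probes correlate with the same markers was not counted. *Amh*, anti-Mullerian hormone of the granulosa cells of small growing follicles, gave the largest value. Its levels were 1.13, 1.65, 0.78, 1.87 and 1.69 in controls, -0.12, 1.66, 0.52 and 1.43 at 0.06 mg/kg/day, 0.87, 0.09, 0.30, 1.28 and -0.24 at 20 mg/kg/day, and 1.76, 1.59, 0.93, 0.77, 0.04 and 1.21 at 60 mg/kg/day. In each group the animal with the least *Amh* was the one with the most *Igf2r*. Over the 20 arrays r of *Igf2r* with *Amh* was -0.877 (permutation p = 1e-05, the smallest they can give; adjusted p = 0.00312), rho was -0.937 (permutation p = 1e-05), and r within slides was -0.975, -0.666 and -0.870. Without the 2 arrays farthest from the median of *Amh*, r was -0.867.

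*Fshr*, the receptor for follicle-stimulating hormone on granulosa cells, gave r of -0.793 with *Igf2r* and 0.782 with *Irs2* (adjusted permutation p = 0.00312 for each). *Serpine2*, a protease inhibitor of granulosa cells, gave -0.800 and 0.708 (0.00312 and 0.0156). *Inhba*, the beta A subunit of inhibin and activin, gave -0.675 and 0.747 (0.0250 and 0.00468). *Amh* also correlated with *Irs2* (0.765, adjusted p = 0.0039) and with *Igfbp4* (-0.729, adjusted p = 0.0114). *Esr2*, the estrogen receptor of granulosa cells, gave -0.603 with *Igf2r* (adjusted p = 0.0494) and 0.547 with *Irs2* (adjusted p = 0.0798).

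**Figure D3:**
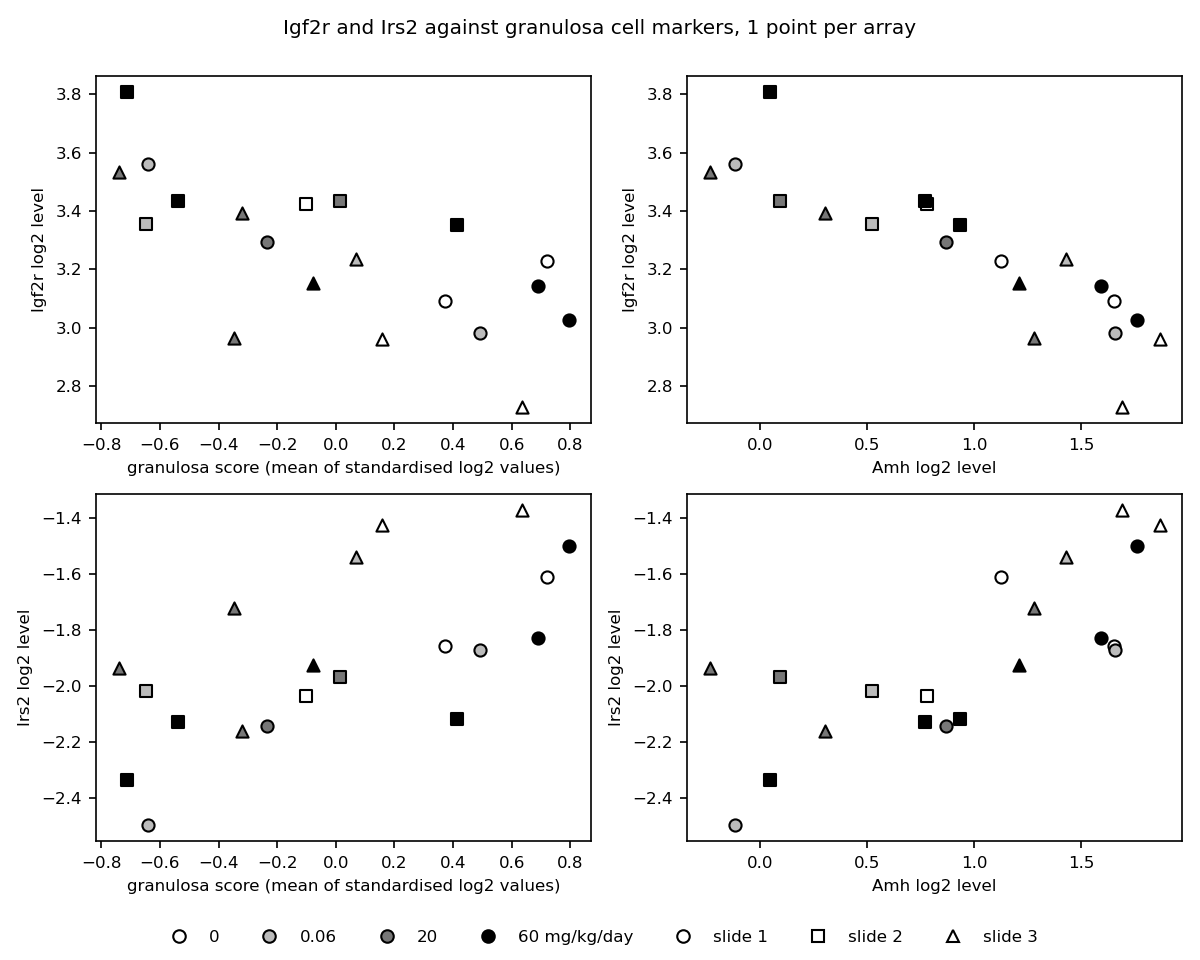
Log2 level of *Igf2r* (top) and *Irs2* (bottom) against the granulosa score (left) and the log2 level of *Amh* (right), 1 point per array, with fill by dose and shape by slide. *Igf2r* falls along both axes (r = -0.691 and -0.877) and *Irs2* rises along both (r = 0.661 and 0.765), with all doses spread along the same bands.

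*Igf1* had r of -0.390 with the granulosa score (limma, adjusted p = 0.270). It fell with *Gja1*, the main gap junction protein of granulosa cells (r = -0.702, adjusted permutation p = 0.0174). *Igf1r* rose with *Inhba* (r = 0.610, adjusted permutation p = 0.0425), and its r with the score was 0.420 (limma, adjusted p = 0.245). *Irs1* fell with the activin-binding *Fst* (r = -0.603, adjusted p = 0.0446), but 11 of the 18 granulosa genes had a positive r with it, the highest *Fshr* (0.547, adjusted p = 0.0739), and its r with the score was 0.202. *Igfbp5* rose with *Wt1*, a transcription factor of granulosa cells of small follicles (r = 0.729, rho = 0.713, permutation p = 5e-05 and 0.00061, adjusted p = 0.00325), with r of 0.617 without the 2 farthest arrays. With the granulosa score, however, r of *Igfbp5* was 0.215 (limma, adjusted p = 0.610), and 12 of the 18 granulosa genes had a positive r with it. *Insr* had 0 calls against the 39 genes.

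Against the theca score 0 of 10 genes were called, with 4.86% of all probes called. *Igfbp4* came nearest, with r of -0.569 (permutation p = 0.00917), rho of -0.588 (permutation p = 0.00745) and a limma adjusted p of 0.0770, and r within slides was -0.584, -0.895 and -0.407. Of all alternatives it passed in 1 only, without 60 mg/kg/day replicate 1 (r = -0.714, limma adjusted p = 0.0134). With slide means removed r was -0.629 (adjusted p = 0.0530) and with dose means removed -0.584 (adjusted p = 0.0986). Without the 2 arrays farthest from the median score r was -0.537. Of single theca genes, *Igfbp4* fell with *Cyp11a1*, which makes pregnenolone from cholesterol (r = -0.624, adjusted permutation p = 0.0425), and with *Mgarp* (r = -0.675, adjusted p = 0.0250). *Igf2r* rose with *Star*, the carrier of cholesterol into mitochondria (r = 0.644, adjusted p = 0.0311), and fell with 2 other genes of the list, *Ptch1* (r = -0.664, adjusted p = 0.0254) and *Bmp4* (r = -0.621, adjusted p = 0.0425).

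Some genes of the theca list split the arrays into clusters, and 2 of them are described here. The luteinising hormone receptor gene *Lhcgr* ran from -3.63 to -3.01 on 5 arrays, from -1.69 to -0.74 on 13 and from 1.32 to 2.10 on 2. *Cyp17a1*, whose enzyme opens androgen synthesis in theca cells, was low on the same 5 arrays (-3.52 to -2.62) and ran from 1.71 to 3.86 on the other 15. These 5 were control replicate 3, 0.06 mg/kg/day replicate 1, 20 mg/kg/day replicates 2 and 5, and 60 mg/kg/day replicate 5. They were also the 5 highest for *Igfbp4*, at 2.86 to 3.22 against at most 2.52 on the others. *Igf2r* ran from 3.42 to 3.81 on them and reached 3.43 on the others. How many of all probes split the arrays in this way was not counted, so no standing among probes is given for *Igfbp4*. Over the 13 arrays in the middle cluster r of *Lhcgr* was -0.0036 with *Igfbp4*, -0.474 with *Igf2r* and -0.403 with *Igf1*. Over the 15 arrays high in *Cyp17a1* its r was 0.753 with *Igfbp4*, 0.278 with *Igf2r* and -0.242 with *Igf1*. The sign with *Igfbp4* is opposite to that of the split, where arrays low in *Cyp17a1* had the most *Igfbp4*. The lowest *Cyp17a1* levels of the 15 were 1.71 (0.06 mg/kg/day replicate 2) and 2.05 (60 mg/kg/day replicate 6). *Igfbp4* was 1.40 and 1.89 there, and r without these arrays was not computed. These values carry no test.

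Without the 5 arrays low in *Cyp17a1*, a choice made after seeing the data, the following relations kept their sign over the other 15. With the granulosa score r was -0.524 for *Igf2r* and 0.560 for *Irs2*, and with *Amh* it was -0.818 and 0.774. *Igfbp4* moved further, from -0.729 to -0.400 with *Amh*, from -0.569 to -0.223 with the theca score and from 0.764 to 0.504 with *Igf2r*. The r between *Igf2r* and *Irs2* was -0.773.

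Against the luteal score 0 genes were called, where 0.0172% of all probes were. *Irs2* had the largest r (-0.624, permutation p = 0.00326, adjusted p = 0.244). With unstandardised log2 values in place of standardised ones, *Igf2r* passed (r = 0.753, adjusted p = 0.0157). It was 1 of 2 slopes on scores that gained a call in that setting. The share of all probes called there was not counted, and list genes with a wide range weigh more in such a score. *Abca1*, a cholesterol exporter on the luteal list, rose with *Igfbp4* (r = 0.813, adjusted permutation p = 0.00312) and with *Igf2r* (r = 0.761, adjusted p = 0.00468), and so did *Parm1* (r = 0.753 and 0.702). The luteal list did not move one way with *Igfbp4*: 7 of its 13 genes had a positive r, *Hsd17b7* fell with it (r = -0.654, adjusted p = 0.0268), and r with the luteal score was 0.0356.

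**Figure D4:**
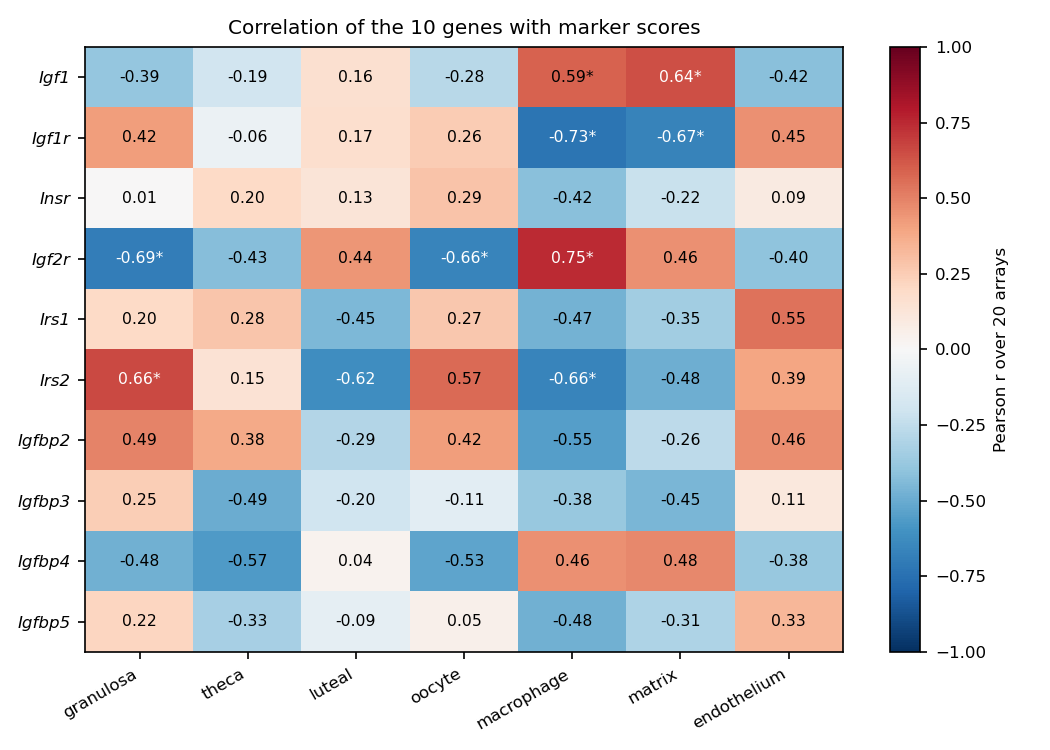
Pearson r over 20 arrays between each gene (rows) and 7 marker scores (columns), coloured from -1 to 1, with a star where the limma slope passed after adjustment over all probes. *Igf2r* and *Irs2* carry opposite signs on all 7 scores.

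Scores of other cell types moved with the same genes and are given beside them, chosen after the data were seen. The macrophage score (10 genes, all well above background on 20 arrays, mean r between genes 0.721) was -0.763 in controls and -0.131, 0.341 and 0.439 at the rising doses, and -0.526, 0.870 and -0.220 on the 3 slides. Of the 10 genes 4 were called against it, with 12.6% of all probes: *Igf2r* (r = 0.745, adjusted p = 0.00606), *Igf1* (0.593, 0.0399), *Igf1r* (-0.731, 0.00909) and *Irs2* (-0.661, 0.0191). With slide means removed 0 of 10 were called, with 2.41% of all probes, and r was 0.639 for *Igf2r* and -0.640 for *Irs2*. The fibroblast and matrix score had 2 calls (4.21% of probes), *Igf1* (r = 0.645) and *Igf1r* (r = -0.667). The oocyte score had 1 (3.58%), *Igf2r* (r = -0.664), and the endothelial score 0 (0.813%). With slide means removed these 3 scores had 0 calls among the 10 genes, beside 1.92%, 0.929% and 1.34% of all probes. The part of these cell types in the relations above was not tested.

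Among themselves, 45 pairs of the genes were compared over the arrays. The permutation p were adjusted over these pairs only, and how often other probes correlate as strongly was not counted. *Igf2r* and *Irs2* were the most opposed (r = -0.809, permutation p = 4e-05, adjusted over the pairs 0.0018, rho = -0.829), with r of -0.798, -0.840 and -0.770 within slides. *Igf2r* and *Igfbp4* rose together (r = 0.764, permutation p = 1e-04, adjusted p = 0.00225, rho = 0.725), with 0.844, 0.591 and 0.771 within slides. The adaptors *Irs1* and *Irs2* also varied together (r = 0.701, permutation p = 0.00038, adjusted p = 0.0057), as ligand and receptor did in opposite directions, with r of -0.632 between *Igf1* and *Igf1r* (permutation p = 0.00304, adjusted p = 0.0214). That last value was -0.530, -0.494 and -0.436 within slides, and -0.385 without the 2 farthest arrays. *Igf2r* and *Irs1* had r = -0.628 (permutation p = 0.00281, adjusted p = 0.0214). With slide means removed, r of *Irs1* was smaller, 0.571 with *Irs2* and -0.490 with *Igf2r*. Within slides r of *Irs1* was 0.741, 0.680 and 0.484 with *Irs2*, and -0.546, -0.720 and -0.440 with *Igf2r*. The neighbouring genes *Igfbp2* and *Igfbp5* had r of 0.225 over 19 arrays. Leaving out control replicate 5, which stood apart, *Igfbp2* had r of -0.555 with *Igf2r* and 0.492 with *Irs2*.

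**Figure D5:**
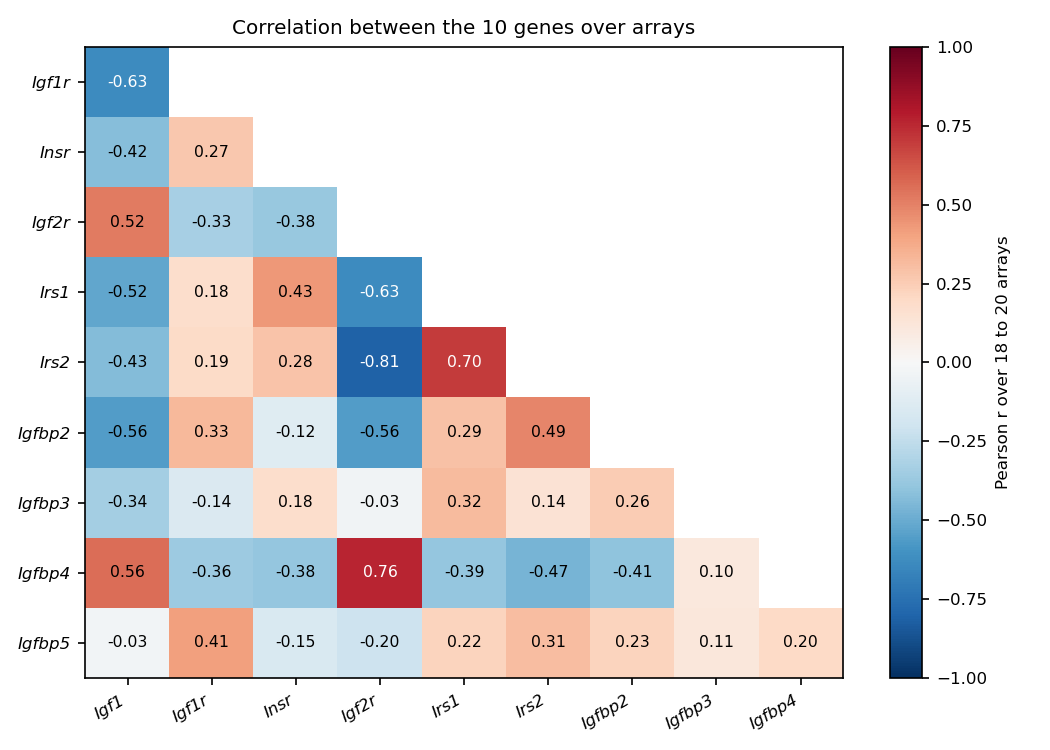
Pearson r between each pair of the 10 genes over the arrays, coloured from -1 to 1, over 20 arrays, or over 19 or 18 where a pair includes *Igfbp2* or *Igfbp3*, whose 1 array far above the others was left out. *Igf2r* against *Irs2* (-0.809) is the strongest negative pair and *Igf2r* against *Igfbp4* (0.764) the strongest positive one.

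By likeness over the 20 arrays, among 10961 named genes well above background on all of them, the gene nearest to *Igf2r* was the glycolytic *Pgk1* (r = 0.948), followed by *Psmd9* (0.939) and *Ap2s1* (0.923). Nearest to *Irs2* were *Pawr* (0.931), *Ntn4* (0.915) and *Abcd2* (0.909), and to *Igfbp4* *Rsu1* (0.930), *Hspb9* (0.920) and *Anxa4* (0.919). *Igf1* was nearest to *Casp12* (0.906), *Il17re* (0.892) and *Epb41l4b* (0.890), *Igf1r* to *Snurf* (0.822), *Cul5* (0.820) and *Dcaf6* (0.811), and *Irs1* to *Elfn2* (0.895), *Gpr182* (0.860) and *Kif26a* (0.860). *Igfbp5* was nearest to *Ccdc125* (0.818), *Mfsd6* (0.816) and *Hip1r* (0.792). *Insr* had *Or4d6* (0.861), *Wnt9b* (0.826) and *Zfp444* (0.814), which fell to 0.588, 0.426 and 0.682 with slide means removed. *Igfbp3* had *Stk38l* (0.941), *Tax1bp1* (0.938) and *Ablim3* (0.937), and without its highest array these were 0.747, 0.707 and 0.750. *Igfbp2* had *Wnt6* (0.823), *Foxc1* (0.821) and *Agap1* (0.819), or 0.566, 0.650 and 0.510 without its highest array. These are the largest of many values, all from the same arrays, and are given as a description.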

How the data were processed

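Ovarian RNA of 20 animals was hybridised to 1-colour Agilent arrays, and groups follow the doses in the labels. The scanner values are intensity read by Feature Extraction 11.5.1.1, per the file headers, and the processed signal used here is linear and already corrected for background. A deposited table of the whole series gives log2 values, made by the authors, for these arrays. Its column medians were -0.0712 to 0.0797. After each probe was centred over the arrays, it and the scanner values had r of 0.946 to 0.991 per array, and what its zero stands for is not known. The normalization behind it is not given in the sources used here.

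Spots of a probe were averaged without outlier flags as log2 of the processed signal minus log2 of the array's 75th percentile over non-control spots. 32 of 30367 probes without a usable spot were dropped, and probes well above background on at least 4 arrays were kept (23258). Transcripts were matched without version to RefSeq gene names of build GRCr8, naming 18745 probes, 0 of them with several symbols. For a gene with several probes the brightest was used. The number of arrays limits the precision: the fit has 16 residual degrees of freedom, with a median residual SD of 0.275 (log2).

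limma 3.58.1 in R 4.3.3 fitted the 4 group means, with Benjamini-Hochberg adjustment over all kept probes at 0.05, and was tested on simulated data. Correlations carry two-sided p from 100000 permutations. The members, the gene lists and the named genes (the 10 members, pathway genes at an unadjusted p under 0.05, 7 pathway genes fixed by name, and the 3 genes nearest to each member) were chosen with earlier results of these data known. Single marker genes were picked after their values were seen. 1 pathway gene fixed by name and 1 marker gene are not reported here. Alternatives were other normalizations and filters, blocks by slide, spike-in set and replicate number, the deposited table, and each array left out. Deviations of arrays with the same replicate number had r of -0.31 to 0.346 (27 pairs, median 0.0333). Those of arrays with different numbers had r of -0.601 to 0.579 (122 pairs, median -0.0191). These ranges overlap and cannot exclude pairing by replicate number. Figures were drawn with matplotlib 3.10.9.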

Additional observations from a re-analysis of the deposited data

Results flagged for a closer look

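The level of *Igfbp2* in control replicate 5 was 4.019 (log2), with the next highest control at 3.126. That gap is 0.722 of the range of the 5 controls, above the critical value of 0.71 of Dixon's test at the 95% level. It was the only 1 of 40 groups (10 genes at 4 doses) to pass that test, and chance alone would pass about 1 in 20. The second *Igfbp2* probe varied with the first over the arrays (r = 0.979).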

How the results depend on the processing

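Calls of dose effects were 0 under all alternatives run, and the differences of *Igfbp2* at 20 mg/kg/day and *Igfbp5* at 60 mg/kg/day stayed negative in each of them. No dose difference had passed in the first place, so every change of sign was of a difference that was not called. The cause of these changes was not tested. After quantile normalization *Igfbp4* at 20 mg/kg/day was -0.0302, *Insr* at 60 mg/kg/day 0.00122 and *Foxo3* at 60 mg/kg/day 0.0151 (log2). Normexp on median signals, used because the files hold no mean signal for the planned version, gave *Irs1* 0.0288 and *Igfbp5* 0.0263 at 0.06 mg/kg/day, *Irs1* 0.0522 and *Igfbp4* -0.00554 at 20 mg/kg/day, and *Insr* 0.0424 and *Foxo3* 0.0585 at 60 mg/kg/day. *Insr* at 60 mg/kg/day was 0.0134 in the deposited table and 0.0183 with slide as a block. With spike-in set as a block *Irs1* at 20 mg/kg/day was 0.000588. The mean of both probes gave *Insr* -0.0680 at 0.06 and -0.128 at 20 mg/kg/day.

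Pairing by replicate number, with that number as a block, gave *Igf1* -0.0241 at 0.06 mg/kg/day and 551, 1114 and 2383 probes at an unadjusted p under 0.05 at the rising doses, against 710, 1066 and 1464 without it. The best match of an array had its own number for 1 of 20 arrays.

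Leaving out 1 array at a time, differences whose sign changed ran as follows. At 0.06 mg/kg/day *Igf1* ran from -0.104 to 0.232, *Igf1r* from -0.0624 to 0.178, *Insr* from -0.0601 to 0.0645, *Igfbp2* from -0.235 to 0.0739, *Igfbp4* from -0.457 to 0.0674 and *Igfbp5* from -0.181 to 0.151. At 20 mg/kg/day *Insr* ran from -0.00267 to 0.126, *Irs1* from -0.259 to 0.0978 and *Igfbp4* from -0.120 to 0.207. At 60 mg/kg/day *Igfbp4* ran from -0.336 to 0.0216 and *Akt1* from -0.0430 to 0.0988. Of the slopes on scores under alternatives, 488 kept their side of the threshold, 83 lost the call and 4 gained it. Only slopes called at first could lose a call. These were 2 on the granulosa score, 4 on the macrophage, 2 on the fibroblast and matrix and 1 on the oocyte score. The 488 include slopes that were called neither before nor after, so they do not measure how stable the calls are. With 4 to 6 animals a group, differences of the size seen here are close to the spread between arrays.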
